A study of Homo sapiens with 9 samples.

Results

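Telomerase is the enzyme that adds telomere repeats to chromosome ends, and shelterin is the protein complex that coats those repeats. The expression of 10 of their genes was examined in LNCaP:C4-2 cells: the reverse transcriptase TERT, the RNA subunit TERC, the 4 H/ACA ribonucleoprotein genes DKC1, NOP10, NHP2 and GAR1, the trafficking factor WRAP53, and the shelterin genes TERF1, TERF2 and POT1. They were chosen by function and found by symbol through their Ensembl identifiers, and make up 10 of the 60675 genes in the count files. LNCaP:C4-2 is an established castration-resistant prostate cancer cell line. Every library came from cells carrying a doxycycline-inducible pLKO.1-puro lentiviral construct, selected with puromycin, kept in charcoal-stripped serum and given 1 μg/ml doxycycline for 6 days. The construct encoded shScramble, a hairpin without a gene target, in 3 libraries, shMETTL3 guide 2 in 3 libraries and shMETTL3 guide 1 in 3 libraries. METTL3 is the catalytic subunit of the m6A RNA methyltransferase. The labels call the samples vehicle, with no further agent named, and they do not say whether the 3 libraries of a group came from separate cultures or separate transductions, so p-values measure only the spread between these libraries.

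TERT copies the short template carried inside TERC into telomere repeats. Dyskerin, the product of DKC1, binds the H/ACA part of TERC as a core together with NOP10, NHP2 and GAR1, and the same 4 proteins form the particles that guide pseudouridylation of ribosomal RNA. The WRAP53 protein, also called TCAB1, brings telomerase to Cajal bodies and to telomeres. TERF1 and TERF2 bind double-stranded telomere repeats, and POT1 binds the single-stranded overhang. Most somatic cells keep TERT silent whereas the accessory genes are expressed widely, and most carcinomas, prostate carcinoma included, have telomerase activity.

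The template is shown because it is what telomerase copies, and because TERC proved unreadable in these counts. The stretch below lies in the single exon of TERC, a non-coding RNA gene, at chr3:169764985-169765035 on the minus strand of GRCh38. Capitals mark the 11 template bases, positions 46 to 56 of the annotated transcript, written as DNA.
TERC: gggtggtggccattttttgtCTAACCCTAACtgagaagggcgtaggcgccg

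The promoters of TERT, DKC1 and NOP10 are shown for their changes in the libraries labelled guide 1. TERT and DKC1 had the largest rises among the members there, and NOP10 was the member called lowered. POT1 was also lower there, within the 1.5-fold limit. The sequences are from RefSeq (GRCh38.p14), run 5′ to 3′ in the direction of transcription, and are the parts of the 250 bases before the start site that lie outside every annotated exon. They cover chr5:1295070-1295318 on the minus strand for TERT, chrX:154762614-154762741 on the plus strand for DKC1 and chr15:34343178-34343314 on the minus strand for NOP10. Capitals mark CACGTG, the E-box bound by MYC with MAX, and GGGCGG or its reverse complement CCGCCC, the GC-box bound by SP1.
TERT: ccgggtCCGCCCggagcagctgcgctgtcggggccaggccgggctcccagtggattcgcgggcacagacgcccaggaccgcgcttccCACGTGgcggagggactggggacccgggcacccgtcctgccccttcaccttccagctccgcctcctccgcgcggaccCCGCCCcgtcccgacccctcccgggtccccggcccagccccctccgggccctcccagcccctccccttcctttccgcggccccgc
DKC1: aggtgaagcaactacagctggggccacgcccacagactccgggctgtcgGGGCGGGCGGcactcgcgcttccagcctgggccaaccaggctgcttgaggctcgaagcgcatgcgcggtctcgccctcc
NOP10: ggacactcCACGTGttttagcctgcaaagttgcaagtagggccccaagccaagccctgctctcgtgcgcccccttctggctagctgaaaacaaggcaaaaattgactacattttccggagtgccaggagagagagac

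The TERT stretch held 1 E-box and 2 GC-boxes in 249 bases that were 78.7% G or C. The DKC1 stretch held 2 overlapping GC-boxes in 128 bases and 0 E-boxes. Its whole 250-base window held 4 GC-boxes, the others within bases that the annotation counts as exon. The NOP10 stretch held 1 E-box and 0 GC-boxes in 137 bases, and a second E-box lay 11 bases before the start site, within bases that the authors' annotation counts as exon. Of the members, 7 of 10 had an entry in the promoter table. Over their 250-base windows, searched on both strands, 2 of these 7 members, TERT and NOP10, had an E-box, against 7.7% of all 27167 genes in the table. GC-boxes were in 42.5% of all windows. Counted by gene, every member with an entry except NOP10 had a GC-box in some window. GAR1 and WRAP53 also had windows without a GC-box, so the count by gene is not comparable with the share of windows. A match of letters is a description of the sequence and not a bound site.

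The libraries held between 21899501 and 30897639 counted reads. In shScramble libraries METTL3 was between 29.8 and 33 TMM-normalised CPM, that is, reads scaled to a common library size. It was between 15.8 and 16.6 CPM with guide 2, a log2 fold change of -0.95 ± 0.0687 (SE, adjusted p = 2.97e-12), and between 29.4 and 30.1 CPM in the libraries labelled guide 1 (log2 fold change -0.08). METTL3 was therefore not lowered in those 3 libraries, and they are referred to by their label throughout. The luminal prostate markers, 10 of 10 of which were detected, summed to between 2790 and 2826 CPM with shScramble. The sum was 3324 to 3450 CPM with guide 2 and 1465 to 1508 CPM in the libraries labelled guide 1. With guide 2, 3 rose by at least 1.5-fold at an adjusted p under 0.05, and 1, KLK3, fell (log2 fold change -0.82). Among all tested genes, 8.85% rose and 20.4% fell. In the libraries labelled guide 1, 0 rose and 6 fell, beside 21.2% and 16.5% of all tested genes. KLK3 had 0.15 there. FOLH1 carried much of the sum, at 1210 CPM with shScramble, 1301 CPM with guide 2 and 544 CPM in the libraries labelled guide 1. Basal markers were at most 0.199 CPM in sum, with KRT5 and TP63 at 0 in all 9 libraries. Mesenchymal markers (5 of 5 detected) summed to between 68.4 and 79.4, 62.2 and 66.3, and 225 and 243 CPM in the same order, and neuroendocrine markers (6 of 6 with a read in each group) to between 9.67 and 11.9, 3.39 and 5.03, and 75.2 and 79.2 CPM, with CHGB and INSM1 among those at 3 counts or fewer with guide 2. The mesenchymal sum is carried by FN1 (46.7 CPM with shScramble and 60.3 CPM with guide 2), and 4 of the 5 markers fell with guide 2, with a median log2 fold change of -2.29 over the list. VIM was at 23.1 CPM with shScramble, 3.56 CPM with guide 2 and 153 CPM in the libraries labelled guide 1. Markers of other cell states thus moved with the groups in which telomerase genes moved, and their part in the results below was not tested.

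Levels of different genes were compared as CPM per kilobase of annotated exon. With shScramble the order ran from NOP10 at 168 ± 7.14 (SD, n = 3) through NHP2 at 73.9 ± 2.51, DKC1 at 35.3 ± 2.02 and GAR1 at 22 ± 0.6 to POT1 at 12.2 ± 0.241 CPM per kb. TERF2 followed at 6.37 ± 0.164 CPM per kb, then TERF1 at 4.09 ± 0.364 and WRAP53 at 3.87 ± 0.324. The last pair overlapped between libraries, and every other pair of neighbours in the order was separate. TERT was the lowest of the protein-coding members at 0.299 ± 0.0838 CPM per kb. The accessory subunits were thus present far above the catalytic subunit in these units. With guide 2 WRAP53 (6.64 ± 0.44 CPM per kb) stood above TERF1 (4.87 ± 0.062), without overlap. In the libraries labelled guide 1 NOP10 (110 ± 16 CPM per kb) and NHP2 (103 ± 3.19 CPM per kb) overlapped. Exon length here is the union of all annotated exons, which understates the level of genes with long alternative exons.

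**Figure D1:**
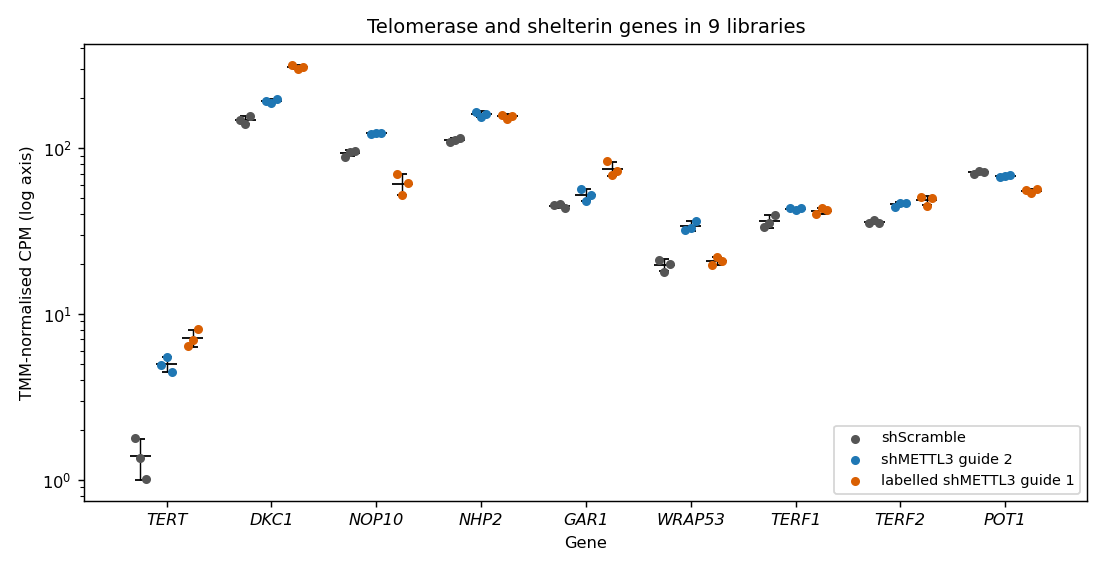
TMM-normalised CPM on a log axis (y) of the 9 tested genes (x) in each of 9 libraries, with points for libraries, horizontal bars for the mean and error bars for the SD (n = 3). TERT lies between 1.01 and 1.78 CPM with shScramble and above 4 CPM in all 6 other libraries, and NOP10 is the gene whose 2 shMETTL3 groups lie on opposite sides of shScramble.

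TERT, on the minus strand at chr5:1253147-1295069, had 55, 43 and 23 reads in the shScramble libraries, 114, 137 and 98 reads with guide 2, and 183, 192 and 242 reads in the libraries labelled guide 1. These are 1.78, 1.35 and 1.01 CPM, then 4.94, 5.46 and 4.44 CPM, then 6.42, 6.91 and 8.09 CPM. The 3 groups did not overlap. The log2 fold change against shScramble was 1.81 ± 0.185 (SE) with guide 2 (edgeR quasi-likelihood test, adjusted p = 2.37e-09) and 2.34 ± 0.173 in the libraries labelled guide 1 (adjusted p = 1.74e-12). With single libraries removed the values ranged from 1.66 to 2.04 and from 2.19 to 2.57. The 2 shMETTL3 groups differed from each other by -0.53 ± 0.147 (guide 2 minus guide 1, adjusted p = 0.00211), which is under the fold change limit of 1.5 used for a call. That difference passed the limit in 3 alternative fits, among them scaling by library size alone (-0.66). Both comparisons use the same 3 shScramble libraries, so they are not independent. The shScramble values rest on 23 to 55 reads, so counting error is part of their spread.

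TERC, at chr3:169764520-169765060 on the minus strand, had 0, 0 and 2 reads with shScramble, 1, 1 and 0 with guide 2, and 0, 1 and 0 in the libraries labelled guide 1. All 9 values are at or under 3 counts, the limit that a count of 0 allows, and TERC was not tested. These counts cannot be read as the level of TERC. Of its 541 exon bases, 438 (81%) are shared with a second entry on the same strand, ENSG00000277925, which is also at 0 in all libraries. Reads in shared stretches appear to have been counted largely for neither gene. Of 1207 entries whose exon bases are all shared with genes on the same strand, 63 had a read in any library, with 287 reads in sum over all 9. Of 735 entries whose exon bases are all shared with genes on the opposite strand only, 0 had a read. RMRP, RPPH1 and RN7SL1, abundant structural RNAs whose exon bases are all shared with another entry, were at 0 as well. RN7SK, a structural RNA without a poly(A) tail, was counted at 1.51, 3.34 and 0.857 CPM on average in the 3 groups, with between 17 and 90 reads a library. RN7SL2, the RNA of the signal recognition particle, was at 11.8, 6.71 and 8.13 CPM. Whether library preparation also had a part in the low TERC counts was not tested.

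The other members were checked for such shared stretches. TERT, NOP10, GAR1 and TERF1 share 0 exon bases with another gene. POT1 shares 1.88% and TERF2 1.74%. DKC1 shares 5.85%, mostly with the small nucleolar RNAs SNORA56 and SNORA36A inside it, and WRAP53 shares 7.84%. NHP2 shares 27.4% with RMND5B on the opposite strand, so part of its reads may be missing from its count.

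DKC1, at chrX:154762742-154777689 on the plus strand, measured 147, 140 and 157 CPM with shScramble, 192, 187 and 197 CPM with guide 2, and 318, 301 and 309 CPM in the libraries labelled guide 1. All 3 groups were separate. Its log2 fold change was 0.37 ± 0.0473 with guide 2 (adjusted p = 1.32e-07, below the 1.5-fold limit) and 1.06 ± 0.0471 in the libraries labelled guide 1 (adjusted p = 2.09e-17, called). The difference between the 2 shMETTL3 groups was itself called, at -0.69 ± 0.0468 (adjusted p = 1.52e-13).

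NOP10, the smallest protein of the H/ACA core, lies at chr15:34341713-34343177 on the minus strand. It measured 88.6, 94.8 and 95.9 CPM with shScramble, 122, 123 and 124 CPM with guide 2, and 69.6, 51.9 and 61.7 CPM in the libraries labelled guide 1. The guide 2 libraries were all higher than shScramble and the libraries labelled guide 1 all lower. The log2 fold change was 0.40 ± 0.0739 with guide 2 (adjusted p = 0.000204, not called) and -0.61 ± 0.0757 in the libraries labelled guide 1 (adjusted p = 2.55e-06, called). The call is marginal: without replicate 2 of the guide 1 label the value was -0.51, and a test against a fold change of 1.5 gave an adjusted p of 0.458. The direct difference between the shMETTL3 groups was 1.01 ± 0.0756 (adjusted p = 3.65e-09, called).

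NHP2, at chr5:178149460-178153967 on the minus strand, measured 108, 112 and 115 CPM with shScramble, 166, 153 and 160 CPM with guide 2, and 159, 150 and 157 CPM in the libraries labelled guide 1. Both shMETTL3 groups were above shScramble and overlapped with each other. The log2 fold changes were 0.52 ± 0.0465 (adjusted p = 2.06e-10) and 0.48 ± 0.0463 (adjusted p = 4.45e-10), neither reaching the 1.5-fold limit. The difference between the shMETTL3 groups was 0.04, with a 95% interval of -0.05 to 0.13.

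GAR1, at chr4:109815510-109824740 on the plus strand, joins the particle last during assembly. It measured 45.3, 46 and 43.6 CPM with shScramble, 56.3, 48.2 and 52.3 CPM with guide 2, and 83.2, 69 and 72.3 CPM in the libraries labelled guide 1. The 3 groups were separate. With guide 2 the log2 fold change was 0.21 ± 0.0664 (adjusted p = 0.00755), and across the alternative fits that p ranged from 0.000333 to 0.407. Cells labelled guide 1 had a value of 0.73 ± 0.0644 (adjusted p = 2.35e-10, called). The 2 groups differed by -0.52 ± 0.0645 (adjusted p = 8.51e-08), under the limit for a call, and by -0.66 with scaling by library size alone, which passes it.

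The proteins of the H/ACA core work in one particle, so the balance of their transcripts was described as the ratio of each gene to DKC1 in CPM per kb within a library. NOP10 was 4.56, 5.13 and 4.63 times DKC1 with shScramble and 4.81, 5.01 and 4.79 times DKC1 with guide 2 (exact permutation test, two-sided, p = 0.6). In the libraries labelled guide 1 the ratio was 1.66, 1.31 and 1.51, without overlap with shScramble (exact permutation p = 0.1, the smallest that 3 libraries against 3 allow). That is a log2 difference of -1.68 in the ratio. NHP2 to DKC1 was 2.1 ± 0.0999 with shScramble, 2.32 ± 0.0821 with guide 2 and 1.4 ± 0.0143 in the libraries labelled guide 1 (SD, n = 3, exact permutation p = 0.1 for each against shScramble). GAR1 to DKC1 was 0.625 ± 0.0522, 0.559 ± 0.0385 and 0.496 ± 0.0358 in the same order (exact permutation p = 0.2 and 0.1). With guide 2 the NOP10 and GAR1 ratios overlapped with shScramble and the NHP2 ratio lay just above it, whereas all 3 ratios lay below shScramble in the libraries labelled guide 1. The 3 ratios share DKC1 as denominator, so they are not independent. In the libraries labelled guide 1 DKC1 itself rose by 1.06 on the log2 scale. NHP2 (0.48) and GAR1 (0.73) rose less, and NOP10 fell (-0.61).

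**Figure D2:**
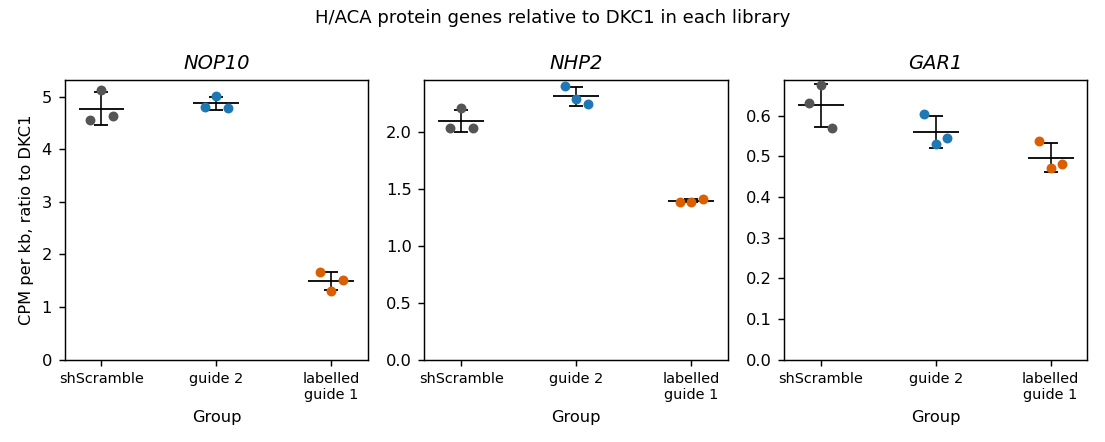
Ratio of NOP10, NHP2 and GAR1 to DKC1 (y, CPM per kb over CPM per kb) in each library of the 3 groups (x), with points for libraries, horizontal bars for the mean and error bars for the SD (n = 3). The NOP10 ratio is 4.56 to 5.13 with shScramble and 1.31 to 1.66 in the libraries labelled guide 1.

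WRAP53 lies at chr17:7686071-7703502 on the plus strand. It measured 21.2, 17.9 and 20 CPM with shScramble, 32.2, 32.8 and 36.4 CPM with guide 2, and 19.8, 21.9 and 20.8 CPM in the libraries labelled guide 1. The guide 2 libraries stood above all 6 others, and the remaining groups overlapped. With guide 2 the log2 fold change was 0.78 ± 0.0747 (adjusted p = 7.44e-10, called), with a range of 0.71 to 0.84 when single libraries were removed. For the libraries labelled guide 1 it was 0.08 ± 0.0764 (adjusted p = 0.349). The direct difference between the shMETTL3 groups was 0.70 ± 0.0741 (adjusted p = 2.01e-09, called), and it fell under the fold change limit with scaling by library size alone (0.56).

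The 3 shelterin members differed little between groups. TERF1 at chr8:73008864-73048122 on the plus strand measured 33.4, 35.4 and 39.6 CPM with shScramble, 43.5, 42.4 and 43.2 CPM with guide 2, and 40, 43.5 and 42.3 CPM in the libraries labelled guide 1. TERF2 at chr16:69355561-69408571 on the minus strand measured 35.2, 36.9 and 35.3 CPM, then 44.2, 46.6 and 46.6 CPM, then 50.5, 44.7 and 49.8 CPM. Both were higher than shScramble in every shMETTL3 library. The log2 fold changes of TERF1 were 0.26 ± 0.0629 (adjusted p = 0.000931) and 0.22 ± 0.062 (adjusted p = 0.00283), and those of TERF2 were 0.35 ± 0.0592 (adjusted p = 9.26e-06) and 0.43 ± 0.0582 (adjusted p = 2.06e-07). None reached the 1.5-fold limit. Between the shMETTL3 groups TERF1 differed by 0.04 (95% interval -0.08 to 0.16) and TERF2 by -0.08 (95% interval -0.19 to 0.04).

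POT1, at chr7:124822386-124929983 on the minus strand, was below its shScramble values in every shMETTL3 library. It measured 70.2, 73 and 71.8 CPM with shScramble, 66.6, 67.7 and 68.6 CPM with guide 2, and 55.5, 53.9 and 56.4 CPM in the libraries labelled guide 1. The 3 groups were separate, with the lowest values in the libraries labelled guide 1. Its change was -0.08 ± 0.0479 on the log2 scale with guide 2 (adjusted p = 0.13) and -0.38 ± 0.0479 in the libraries labelled guide 1 (adjusted p = 8.2e-08, below the 1.5-fold limit). The difference between the shMETTL3 groups was 0.29 ± 0.0486 (adjusted p = 4.96e-06, not called).

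**Figure D3:**
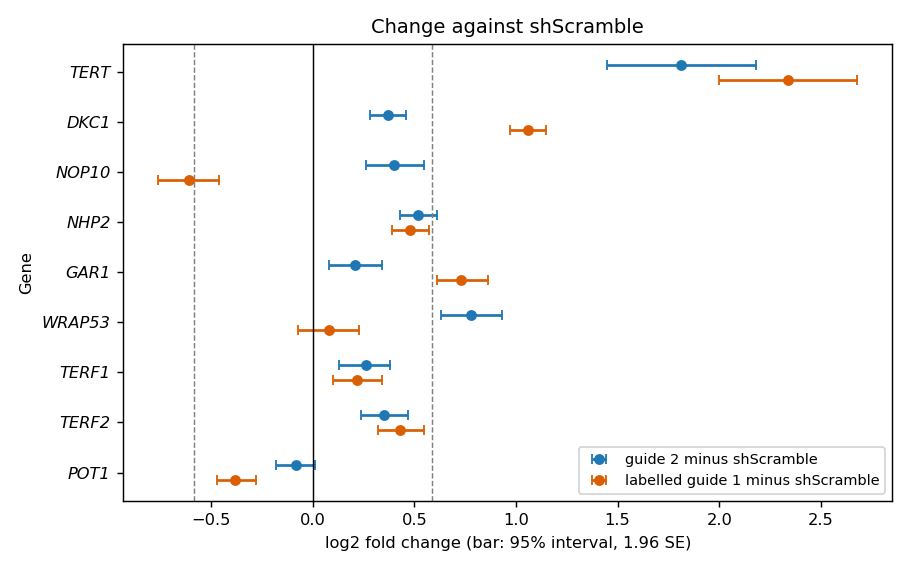
Log2 fold change against shScramble (x) of the 9 tested genes (y) with guide 2 and in the libraries labelled guide 1, where bars are the 95% interval and dashed lines mark a fold change of 1.5. TERT lies farthest to the right in both comparisons, DKC1 and GAR1 lie beyond the limit in the libraries labelled guide 1 and inside it with guide 2, and WRAP53 the other way round.

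Set against all 19278 tested genes, the share of members called was not far from the background in any comparison. With guide 2, 2 of 9 tested members were called, both raised (TERT and WRAP53), against 29.3% of all genes (8.85% raised, 20.4% lowered). In the libraries labelled guide 1, 4 of 9 were called, with TERT, DKC1 and GAR1 raised and NOP10 lowered, against 37.7% of all genes (21.2% raised, 16.5% lowered). Between the shMETTL3 groups 3 of 9 were called, against 47.3% of all genes (19.1% higher with guide 2, 28.2% lower). These were NOP10 and WRAP53, higher with guide 2, and DKC1, lower. With an adjusted p-value under 0.05 alone, 8, 8 and 6 of 9 members passed in the 3 comparisons, against 61.8%, 68.4% and 74.6% of all genes. The groups did not overlap for 9, 8 and 6 of 9 members, against 66.5%, 71% and 75.8%. The median log2 fold change of the members was 0.37, 0.43 and 0.04, and that of all tested genes -0.04, -0.02 and -0.06. With scaling by library size alone the median of all genes was -0.19 with guide 2, and the members moved with it. DKC1 was then 0.22, NOP10 0.25, NHP2 0.37 and TERF2 0.20, each still with an adjusted p under 0.05, while GAR1 was 0.06 (adjusted p = 0.407), TERF1 0.11 (adjusted p = 0.151) and POT1 -0.23 (adjusted p = 0.000116). The 2 calls, TERT at 1.67 and WRAP53 at 0.63, remained.

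The rest of the telomere machinery was described from gene lists chosen by function. Counts of genes that rose or fell in these lists are of called genes. Among all tested genes, 8.85% were raised and 20.4% lowered with guide 2, and 21.2% and 16.5% in the libraries labelled guide 1. The 3 other shelterin subunits were not called in either comparison (0 of 3). TINF2, the subunit that links TERF1 and TERF2, had log2 fold changes of 0.25 ± 0.0613 with guide 2 and -0.31 ± 0.0622 in the libraries labelled guide 1. ACD, the partner of POT1 also called TPP1, had 0.27 ± 0.0675 and 0.42 ± 0.0657, and TERF2IP (RAP1) had 0.16 ± 0.0492 and 0.01 ± 0.049. In the whole of shelterin, then, 0 of 6 genes passed the limit for a call in either comparison with shScramble, beside 29.3% and 37.7% of all tested genes. So few genes do not set shelterin apart from those shares. With an adjusted p-value under 0.05 alone, 3 of the 3 other subunits passed with guide 2 and 2 in the libraries labelled guide 1, beside 61.8% and 68.4% of all genes.

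The CST complex with DNA polymerase alpha-primase fills in the telomeric C-strand after telomerase has acted. Of its 7 genes 6 were tested, and 3 rose and 0 fell with guide 2 (median log2 fold change 0.58), whereas 4 rose and 1 fell in the libraries labelled guide 1 (median 1.29). POLA2, a polymerase alpha subunit, rose by 0.74 ± 0.0627 with guide 2 (adjusted p = 7.66e-11) and by 2.18 ± 0.0587 in the libraries labelled guide 1 (adjusted p = 3.36e-22). PRIM1, the catalytic primase, rose by 1.07 ± 0.078 with guide 2 (adjusted p = 3.14e-12) and by 1.39 ± 0.0756 in the libraries labelled guide 1 (adjusted p = 1.84e-15). POLA1, the catalytic polymerase, rose by 1.44 ± 0.0505 in the libraries labelled guide 1 (adjusted p = 1.09e-19) and had 0.51 ± 0.0524 with guide 2, not called. The genes that rose all encode subunits of polymerase alpha-primase, while CTC1, a core CST subunit, fell by 0.59 on the log2 scale in the libraries labelled guide 1 (adjusted p = 9.29e-10). The CTC1 value is at the limit and was called in 12 of 16 alternative fits (-0.65 to -0.53). TEN1 shares most of its exon bases with a read-through gene and was too low to test.

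Of 16 telomere replication and end-processing genes, 4 rose and 0 fell with guide 2 (median log2 fold change 0.17), and 8 rose and 1 fell in the libraries labelled guide 1 (median 0.56). FEN1, the flap endonuclease, rose by 1.27 ± 0.0585 with guide 2 (adjusted p = 3.54e-16) and by 0.78 ± 0.0586 in the libraries labelled guide 1 (adjusted p = 2.96e-12). EXO1, the resecting exonuclease, rose by 0.76 ± 0.0688 with guide 2 and by 2.72 ± 0.062 in the libraries labelled guide 1 (adjusted p = 2.46e-10 and 9.25e-24). BLM, a RecQ helicase, rose by 2.23 ± 0.0843 in the libraries labelled guide 1 (adjusted p = 5.98e-19). The gene that fell was RTEL1, the helicase that unwinds telomere loops, by 0.68 on the log2 scale (adjusted p = 0.00858). RTEL1 shares 75.4% of its exon bases with a read-through gene, so its count rests on the remaining bases, and it was called in 14 of 16 alternative fits.

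Among 16 genes for telomerase assembly, trafficking and TERC maturation, 4 rose and 1 fell with guide 2 (median log2 fold change 0.33), and 2 rose and 0 fell in the libraries labelled guide 1 (median 0.21). HSP90AA1, a chaperone of TERT, rose by 0.81 ± 0.057 with guide 2 (adjusted p = 1.5e-12), and SHQ1, the chaperone of dyskerin before assembly, rose by 0.76 ± 0.0775 (adjusted p = 2.16e-09). ZCCHC8, a subunit of a nuclear RNA decay adaptor, fell by 0.61 on the log2 scale with guide 2 (adjusted p = 8.34e-11) and was called in 14 of 16 alternative fits. In the libraries labelled guide 1 the called genes were NAF1, which holds the GAR1 place during H/ACA assembly (0.80 ± 0.0705, adjusted p = 6.47e-11), and RUVBL2, an assembly ATPase (0.72 ± 0.046, adjusted p = 7.78e-14). No gene was called in both comparisons.

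Of 9 genes of telomere chromatin, 3 rose and 1 fell with guide 2 and 2 rose and 0 fell in the libraries labelled guide 1, with medians of -0.08 and 0.19. The histone H3 lysine methyltransferases SUV39H1 and SUV39H2 rose in both, by 0.94 ± 0.0943 and 0.95 ± 0.0764 with guide 2 and by 0.85 ± 0.0931 and 0.84 ± 0.0757 in the libraries labelled guide 1 (largest adjusted p = 5.07e-09). The one that fell with guide 2 was NR2C2, an orphan nuclear receptor that can bind variant telomere repeats, by 0.60 on the log2 scale, a call made in 12 of 16 alternative fits.

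The box C/D core proteins form the particles that guide ribose methylation of ribosomal RNA. They are the counterpart of the H/ACA core without a part in telomerase. With guide 2, 0 of 4 were called (median log2 fold change 0.46), and in the libraries labelled guide 1, 3 of 4 rose (median 0.80). NOP58 rose there by 1.08 ± 0.0483 (adjusted p = 2.44e-17) and NOP56 by 0.84 ± 0.0459 (adjusted p = 2.37e-15), beside 1.06 for DKC1 and 0.73 for GAR1. NOP10 is thus the one gene among the 8 core proteins of both particle classes that fell in those libraries.

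Of 15 transcription factors known to act on TERT, 3 rose and 0 fell with guide 2 (median log2 fold change 0.11). In the libraries labelled guide 1, 5 rose and 0 fell (median 0.29). The list was not split by whether a factor activates or represses TERT. Its counts and medians therefore give no direction of effect on TERT. E2F1 rose by 1.33 ± 0.0672 and 1.32 ± 0.0665 (adjusted p = 7.97e-15 and 1.73e-15). WT1 rose by 1.09 ± 0.135 with guide 2 (adjusted p = 8.19e-08), and ETS1 by 0.75 ± 0.15 in the libraries labelled guide 1 (adjusted p = 7.45e-05). MYC and SP1, named because their motifs are marked in the promoters and chosen after their values were seen, were each called in 1 of the comparisons with shScramble. MYC rose by 0.92 ± 0.0461 with guide 2 (adjusted p = 1.67e-15) and had 0.21 ± 0.0462 in the libraries labelled guide 1, a direct difference of 0.71 ± 0.0458 (adjusted p = 5.78e-14, called). SP1 rose by 0.73 ± 0.0482 in the libraries labelled guide 1 (adjusted p = 1.7e-13) and had 0.10 ± 0.0492 with guide 2, a direct difference of -0.63 ± 0.0485 (adjusted p = 2.59e-12, called). Each of these direct differences was called in 15 of 16 alternative fits.

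Several proliferation markers rose in the groups in which TERT rose. Of 10 markers, 5 were called raised with guide 2 and 6 in the libraries labelled guide 1, beside 8.85% and 21.2% of all tested genes. In both, 0 were called lowered, with medians of 0.69 and 0.75. With guide 2 MKI67 had 0.03 (adjusted p = 0.704) and TOP2A 0.09 (adjusted p = 0.142). CCNB1 was lower in the libraries labelled guide 1 (-0.21 ± 0.0469, adjusted p = 0.000336), within the 1.5-fold limit. The 10 markers summed to 906 to 1001 CPM with shScramble, 1434 to 1476 CPM with guide 2 and 1597 to 1648 CPM in the libraries labelled guide 1. RRM2, a ribonucleotide reductase subunit, rose by 1.65 ± 0.0572 with guide 2 and by 1.41 ± 0.057 in the libraries labelled guide 1. PCNA, the replication clamp, rose by 1.17 ± 0.0505 and 1.32 ± 0.0502 in the same order. MCM2, a replicative helicase subunit, rose by 1.06 ± 0.0465 and 1.64 ± 0.0464 (largest adjusted p = 6.74e-17, for PCNA with guide 2). Their part in the change of TERT and DKC1 was not tested.

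**Figure D4:**
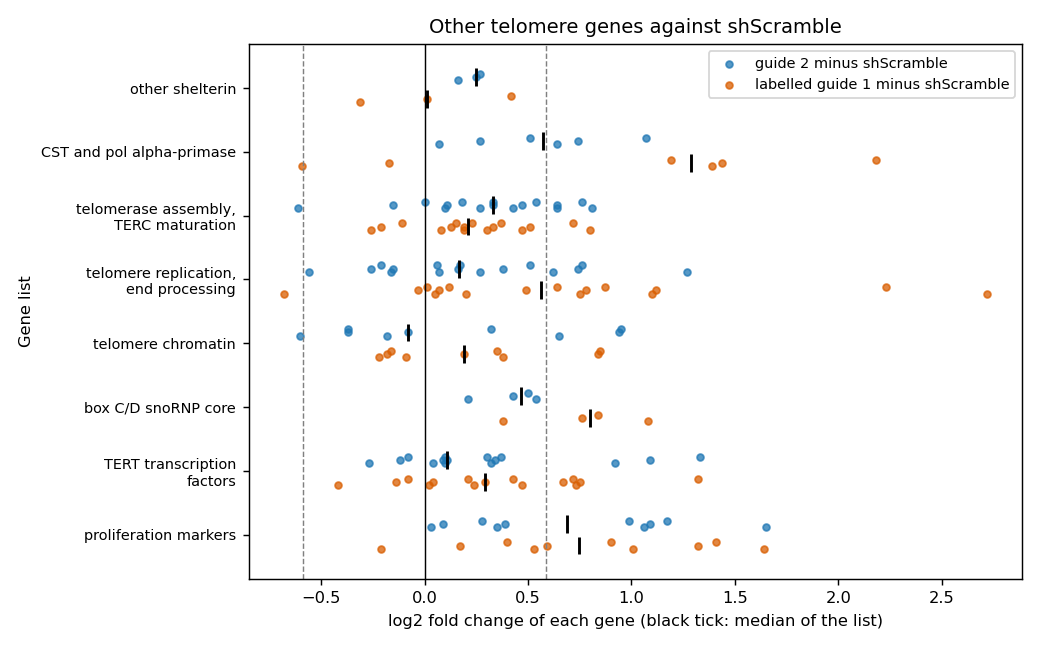
Log2 fold change against shScramble (x) of each tested gene in 8 lists of telomere-related or comparison genes (y), with blue points for guide 2, orange points for the libraries labelled guide 1, black ticks for the median of each list and dashed lines for a fold change of 1.5. The CST and polymerase alpha-primase list has the highest median in the libraries labelled guide 1 (1.29), and no other shelterin gene passes a dashed line.

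The genes whose pattern over the 9 libraries was nearest to that of TERT, by root-mean-square difference of centred log2 CPM, were DPYSL3 (0.227), ZNF488 (0.242), MCM10 (0.25), DMD (0.253) and SMIM3 (0.263). Among the 5 nearest to DKC1 were PPIL1 (0.051), SEPTIN6 (0.0556), DFFA (0.0576) and CCT4 (0.0581). The distances are wider for TERT, whose counts are low, than for DKC1. GAR1 was the member nearest to DKC1, at 0.162 and rank 299 among all tested genes, so the particle partners were not the transcripts most alike.

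The members lie on 9 chromosomes, and only TERT and NHP2 share one. Of the nearest tested genes on either side of the members, 6 of 20 were called with guide 2 and 10 of 20 in the libraries labelled guide 1, beside 29.3% and 37.7% of all tested genes. CLPTM1L, 22674 bases beyond TERT, had log2 fold changes of 0.56 ± 0.0434 and -0.28 ± 0.0438 (neither called), and SLC12A7 on the other side had 0.15 ± 0.0504 and -0.65 ± 0.051 (the second called). The neighbours of TERT thus did not share its rise in both comparisons. MPP1, 994 bases from DKC1, had -2.55 ± 0.201 and 3.26 ± 0.101, both called and of opposite sign, where DKC1 was higher in both. MECOM, the tested gene before TERC, had -1.49 ± 0.229 and 3.14 ± 0.131, both called.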

How the data were processed

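RNA-seq was done on 9 libraries of LNCaP:C4-2 cells, 3 in each of 3 groups taken from the sample labels. The authors trimmed reads with Trim Galore (cutadapt, FastQC), aligned them to GRCh38 with STAR and deposited a raw count per gene and library from featureCounts, without normalisation. Versions and the strand and multimapping settings are not given in the sources used here. The labels and the methods name different RNA extraction kits. Symbols were matched to 56558 (93.2%) of 60675 identifiers.

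The counts were tested in edgeR 4.0.16 (R 4.3.3, limma 3.58.1), with TMM scaling, filterByExpr (minimum count 10, minimum total 15, leaving 19278 genes), robust quasi-likelihood F tests and all 9 libraries in one model. A call needed an adjusted p-value (Benjamini-Hochberg, over all tested genes) under 0.05 together with a 1.5-fold difference or more. SEs and 95% intervals are of the log2 fold change. Alternatives were DESeq2 1.42.0, other scalings, filters, samples and call rules, a replicate block, and each library left out. The test was checked on simulated data.

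The members and gene lists were chosen with earlier results of these data known. Named genes are the members, METTL3, the 2 strongest called rises and 2 strongest called falls in each list and comparison with shScramble, the 5 nearest patterns to TERT and DKC1, and neighbouring genes. Some genes that this rule names are not reported here.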

Additional observations from a re-analysis of the deposited data

Results flagged for a closer look

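The changes of 3 members differed between the 2 shMETTL3 groups by a direct test of guide 2 against guide 1 in the same model: DKC1 by -0.69, NOP10 by 1.01 and WRAP53 by 0.70 on the log2 scale (guide 2 minus guide 1, edgeR adjusted p = 1.52e-13, 3.65e-09 and 2.01e-09). Under the guide 1 label METTL3 RNA was not called against shScramble (log2 fold change -0.08, adjusted p = 0.251), so this is not a comparison of 2 knockdowns of equal depth. Groups of 3 libraries are too small to be tested for a single outlying library.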

How the results depend on the processing

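No member changed direction under any alternative among values that were called. Of the members' log2 fold changes under the alternatives, 465 kept their side of the threshold, 17 gained a call and 4 lost one. The lost calls were those of NOP10 in the libraries labelled guide 1 (without replicate 2 of that group, and with the test against a fold change of 1.5) and of WRAP53 between the shMETTL3 groups (library size alone, 0.56, and the test against a fold change of 1.5, adjusted p = 0.056). Apart from those of the p-value rule alone, the gained calls were all between the shMETTL3 groups: TERT with library size alone (-0.66), without replicate 2 of guide 2 and without replicate 1 of guide 1 (both -0.60), and GAR1 with library size alone (-0.66).

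With an adjusted p-value under 0.05 and no fold change limit, 8 members were called with guide 2, 8 in the libraries labelled guide 1 and 6 between them, and 11910, 13188 and 14386 of all tested genes. The test against a fold change of 1.5 called 3261 genes with guide 2. Both follow from the construction of the rule. With any 1 of the 9 libraries removed, the count was 5314 to 5789 genes with guide 2, 7040 to 7575 in the libraries labelled guide 1 and 9074 to 9433 between them, and 2 to 2, 3 to 4 and 3 to 4 members. Library size alone moved the median of all genes from -0.04 to -0.19 with guide 2 and from -0.06 to -0.20 between the guides, and the raised share of calls with guide 2 from 30.2% to 17.2%.

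Replicate numbers did not pair the libraries: same-numbered libraries deviated with correlations of -0.0981 to 0.0529. With the number as a replicate block, 5494, 7140 and 9027 genes and 2, 4 and 3 members were called. Fitted on shScramble and guide 2 alone, without the libraries labelled guide 1, 2 members were called with guide 2. TERT rests on 23 to 242 reads a library, and TERC could not be measured.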
